A study of Mus musculus with 6 samples.

Results

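The glutathione peroxidases are a family of enzymes named for the use of glutathione to reduce hydrogen peroxide and lipid hydroperoxides. All 8 mouse genes of the family, Gpx1 to Gpx8, were followed here on 1-colour Agilent microarrays, each through the 1 probe whose RefSeq accession maps to that symbol (8 probes of 55681 on the array). A gene was tested if its spot read well above background on 3 or more of the 6 arrays. That left 17844 genes, 6 of the 8 members among them, and left out Gpx5 and Gpx7. The family is defined by name, but it was picked with the DMBA and vehicle values of its members already known. Its differences are therefore given as a description and no test of a member is reported.

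The arrays hold RNA of sorted epidermal cells from male mice, taken 3 days after treatment. In the DMBA group (3 mice, 1 array each) the depilated skin received 7,12-dimethylbenz[a]anthracene, a carcinogenic polycyclic hydrocarbon, and in the vehicle group (3 mice, 1 array each) it received acetone alone. Both groups were depilated, and both carried an EGFP reporter of keratin 15, whose bright cells with high integrin alpha 6 and no surface Sca1 were sorted as hair follicle stem cells and hair germ. The study is about stem cell fates under stress, and this contrast bears on what DMBA exposure changes in the follicle cells.

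Values are log2 intensities minus the 75th percentile of their array, so a level of 0 is that of a probe at the 75th percentile, and levels are not compared between probes. The 75th percentile intensity was 1355 to 2222 on the DMBA arrays and 1758 to 2274 on the vehicle arrays, and 69.3% to 80.9% of probes on the DMBA arrays and 77.0% to 83.6% on the vehicle arrays were well above background. The lowest value of a probe well above background was -5.67 to -4.97 on the DMBA arrays and -6.39 to -5.90 on the vehicle arrays, so the limit of detection lay higher after DMBA. Array vehicle 1 lay alone on its slide and was scanned apart from the other 5 arrays. Of the 15 listed markers of follicle stem cells and hair germ, all were well above background, with Krt15 at 6.01 ± 0.42 in DMBA and 5.81 ± 0.10 in vehicle (SD, n = 3 each) and Itga6 at 2.33 ± 0.53 and 2.52 ± 0.14. In bulk RNA, fewer cells of a type and less RNA per cell cannot be told apart.

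Gpx1 to Gpx4 encode selenoproteins, which carry selenocysteine, the selenium analogue of cysteine, in the active site. In the mouse, Gpx5 to Gpx8 encode forms with cysteine at that place. Gpx1 is the abundant form of the cytosol and mitochondria, Gpx2 the form of gut and other epithelia and a known target of the transcription factor NRF2, and Gpx3 a secreted form found in plasma. Gpx4 reduces lipid hydroperoxides inside membranes and so restrains ferroptosis, a form of cell death driven by lipid peroxidation. Gpx5 is known from the epididymis and Gpx6 from olfactory tissue, and Gpx7 and Gpx8 act in the endoplasmic reticulum. In the GRCm38.p6 annotation Gpx5 and Gpx6 are direct neighbours on chromosome 13, where Gpx8 also lies, and the other members are each on a chromosome of their own.

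The promoters of Gpx3 and Gpx2, the 2 tested members whose groups did not overlap, and of Gpx1, the main cytosolic form, are shown for the 250 bases before the annotated start, 5′ to 3′ on the strand of the gene, from RefSeq (GRCm38.p6). They lie at chr11:54902604-54902853 (plus strand) for Gpx3, chr12:76795555-76795804 (minus strand) for Gpx2 and chr9:108338830-108339079 (plus strand) for Gpx1. Capitals mark matches to any of the motifs searched.
Gpx3: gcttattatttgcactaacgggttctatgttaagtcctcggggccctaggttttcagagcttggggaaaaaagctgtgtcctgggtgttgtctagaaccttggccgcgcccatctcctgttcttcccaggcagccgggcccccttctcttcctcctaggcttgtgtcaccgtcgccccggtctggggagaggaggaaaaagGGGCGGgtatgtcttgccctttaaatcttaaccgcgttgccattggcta
Gpx2: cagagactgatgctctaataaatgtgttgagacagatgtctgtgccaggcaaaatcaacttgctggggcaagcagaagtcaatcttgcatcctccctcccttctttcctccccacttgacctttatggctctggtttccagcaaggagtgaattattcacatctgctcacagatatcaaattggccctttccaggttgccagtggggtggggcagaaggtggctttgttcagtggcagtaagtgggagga
Gpx1: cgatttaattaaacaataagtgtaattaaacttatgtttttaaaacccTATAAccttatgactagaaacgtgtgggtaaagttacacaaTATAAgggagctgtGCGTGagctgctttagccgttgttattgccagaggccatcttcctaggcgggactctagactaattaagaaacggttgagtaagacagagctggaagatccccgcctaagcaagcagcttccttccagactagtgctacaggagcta
The motifs were the cores of the antioxidant response element (TGACNNNGC) and of the xenobiotic response element bound by the aryl hydrocarbon receptor (GCGTG), the TATA box (TATAA), the GC box (GGGCGG), the AP-1 site (TGANTCA) and the p53 half-site, on both strands. None of these motifs overlapped another in the 3 windows shown. The Gpx3 window held 1 GC box, from 49 to 44 bases before the start (positions -49 to -44), and the Gpx2 window held no match to any of them. Gpx1 had a xenobiotic response element core at -147 to -143 and TATA boxes at -202 to -198 and -161 to -157. Among all 32851 promoter windows of this length, a GC box occurred in 32.7%, the xenobiotic core in 28.2%, a TATA box in 22.8%, the antioxidant core in 10.2%, a p53 half-site in 7.13% and an AP-1 site in 6.75%. Among the windows of the other members, a xenobiotic core was found for Gpx5 and for 3 of the 4 annotated starts of Gpx4. The windows of Gpx4 starts 2 and 3 overlap and share a core, so these are not separate sites throughout. A GC box was found for Gpx7 and for the same 3 starts of Gpx4. The windows differed in composition, with 55.2% G and C and 11 CG pairs for Gpx3, 49.2% and 0 for Gpx2, and 42.0% and 7 for Gpx1. These matches describe letters only and are not evidence of binding.

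Gpx3, the secreted form, had the largest difference among the 6 tested members of the family. It read -1.05, -0.05 and -0.59 on DMBA arrays 1 to 3, against -3.77, -6.78 and -5.88 on vehicle arrays 1 to 3. Every DMBA array lay above every vehicle array, and the closest pair was 2.71 log2 units apart. The group means were -0.56 ± 0.50 in DMBA and -5.47 ± 1.55 in vehicle (SD, n = 3 each), a log2 difference of 4.91 (SE 0.77). The spot was well above background on 3 DMBA arrays and on 1 vehicle array, vehicle 1. Gpx3 thus entered the tested set through its DMBA arrays. Its vehicle mean rests on 2 spots that were not well above background, so the size of the difference is not a measured fold and depends on how background is treated.

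Unscaled values show how dim the vehicle spots were. The processed intensity of the Gpx3 spot was 653.2, 2142 and 1418 on DMBA arrays 1 to 3, against 167.2, 19.48 and 29.83 on vehicle arrays 1 to 3. Relative to the dimmest probe well above background on the same array, Gpx3 stood 4.62, 4.92 and 4.86 log2 units higher on the DMBA arrays, against 2.50 higher on vehicle 1, -0.39 on vehicle 2 and 0.02 on vehicle 3. Vehicle 2 and vehicle 3 therefore read at the edge of detection, and vehicle 1 read clearly above it but below each DMBA array. When spots not well above background were raised to that edge, the log2 difference was 4.78. With background correction by normexp and an offset of 50, which pulls dim values together, it was 3.56. Without vehicle 1, the lone array of its slide, it was 5.76.

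**Figure D1:**
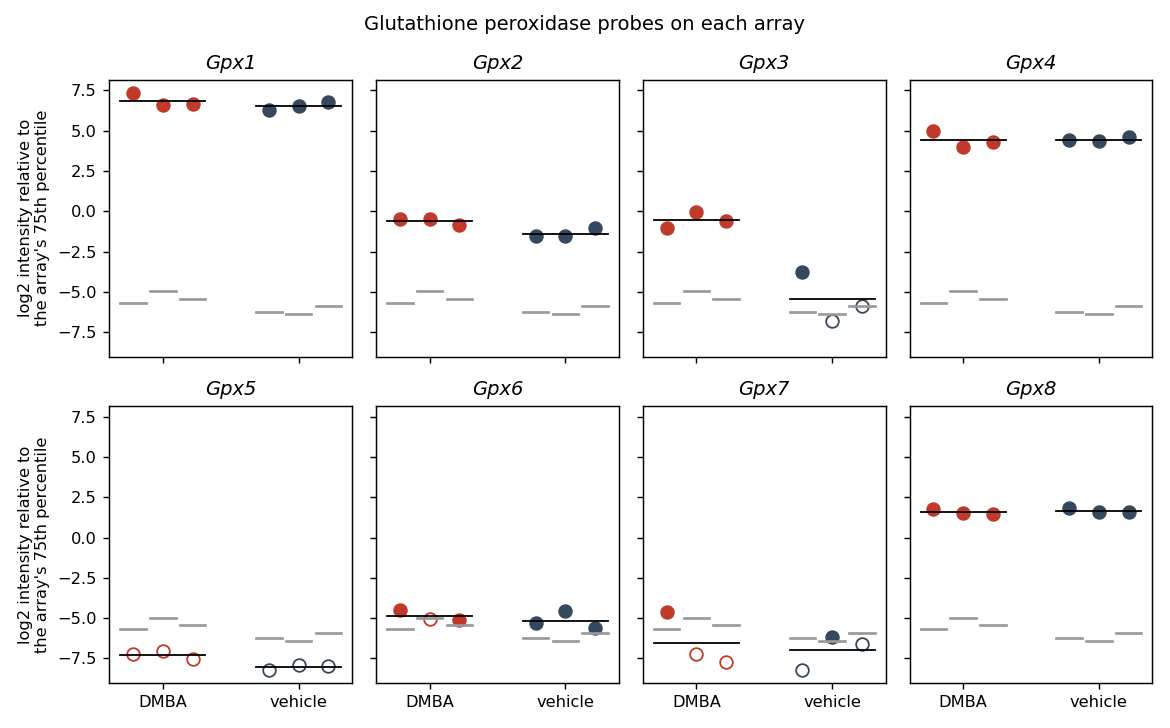
Log2 intensity relative to the 75th percentile of the array for the 8 glutathione peroxidase probes, with the 3 DMBA arrays (red) left of the 3 vehicle arrays (dark blue). Filled points were well above background, open points were not, black lines are group means and short grey lines mark the lowest value of any probe well above background on that array. Gpx3 lies between -1.05 and -0.05 in DMBA and between -6.78 and -3.77 in vehicle, and the other panels show far smaller shifts.

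Gpx2, the epithelial selenoprotein, was the other tested member with groups that did not overlap. It read -0.47, -0.50 and -0.84 on DMBA arrays 1 to 3, against -1.54, -1.55 and -1.06 on vehicle arrays 1 to 3. The groups did not overlap, though DMBA 3 and vehicle 3 were only 0.22 log2 units apart. Means were -0.61 ± 0.21 in DMBA and -1.38 ± 0.28 in vehicle (SD, n = 3 each), a log2 difference of 0.78 (SE 0.25), or 1.71-fold, and the spot was well above background on every array. It was a moderate difference on this array platform, since 1239 of the tested genes had a larger one in the same direction. Thus 2 of the 6 tested members had all DMBA arrays above all vehicle arrays and 0 had them all below, where 4.88% and 5.17% of all genes tested did (10% in either direction). Those members were known when the family was chosen, so nothing is read from that count.

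Gpx1, the abundant cytosolic form, overlapped between the groups. It read 7.37, 6.58 and 6.66 on DMBA arrays 1 to 3, against 6.30, 6.53 and 6.76 on vehicle arrays 1 to 3. Only DMBA 1 stood above the vehicle range, and the log2 difference of 0.34 (SE 0.30) was 0.09 without that array. Before scaling, its intensities did not overlap, at 213300 to 223800 on the DMBA arrays and 178800 to 197100 on the vehicle arrays, and they did not overlap after quantile normalization either. The order of its arrays therefore depended on the scaling, and no spot was saturated.

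Gpx4, the lipid hydroperoxidase, showed no shift after scaling that stood clear of its spread. Its values were 4.96, 4.0 and 4.27 on DMBA arrays 1 to 3, against 4.40, 4.35 and 4.60 on vehicle arrays 1 to 3. After scaling, the DMBA arrays spread to both sides of the vehicle arrays, with a log2 difference of -0.04 (SE 0.31). Before scaling, the intensities of Gpx4 did not overlap, at 35550 to 42220 on the DMBA arrays and 42730 to 47890 on the vehicle arrays. The order of the arrays for Gpx4 therefore depended on the scaling too, with DMBA lower before it. Leaving out DMBA 1 gave -0.32, with both remaining DMBA arrays below all vehicle arrays, and the share of probes above background as a covariate gave 0.30, so neither sign held. After scaling, array DMBA 1 was the highest DMBA array for Gpx1, Gpx2, Gpx4, Gpx6 and Gpx8 and the lowest for Gpx3. Its 75th percentile intensity, 1355, was the lowest of all arrays, which raises its scaled values. Before scaling, DMBA 1 was the lowest DMBA array for Gpx2 (976.8), Gpx6 (59.74) and Gpx8 (4716) as well as Gpx3.

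Among the cysteine forms, Gpx8 of the endoplasmic reticulum had the smallest residual SD of the 6 tested members, 0.17. It read 1.80, 1.51 and 1.46 on DMBA arrays 1 to 3, against 1.85, 1.59 and 1.56 on vehicle arrays 1 to 3, with a log2 difference of -0.08 (SE 0.22). The groups overlapped and the spread within each, 0.18 in DMBA and 0.16 in vehicle, exceeded the difference. Gpx6 lay close to background, at -4.50, -5.06 and -5.09 on DMBA arrays 1 to 3, against -5.30, -4.57 and -5.64 on vehicle arrays 1 to 3. It was well above background on 2 DMBA and 3 vehicle arrays, and its groups overlapped (log2 difference 0.29, SE 0.35).

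The 2 members outside the tested set were at or below detection. Gpx7 passed background on DMBA 1 and vehicle 2 only, with levels of -4.63, -7.24 and -7.72 on DMBA arrays 1 to 3, against -8.21, -6.18 and -6.59 on vehicle arrays 1 to 3. No array read Gpx5 well above background. Its readings of -7.25, -7.03 and -7.52 on the DMBA arrays all exceeded those of -8.23, -7.93 and -7.97 on the vehicle arrays. With no array above background in either group, no fold is given for Gpx5. The DMBA arrays had the higher detection limits, as given above, and relative to the limit of each array the Gpx5 readings overlapped, from -2.07 to -1.58 on the DMBA arrays and from -2.07 to -1.55 on the vehicle arrays.

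**Figure D2:**
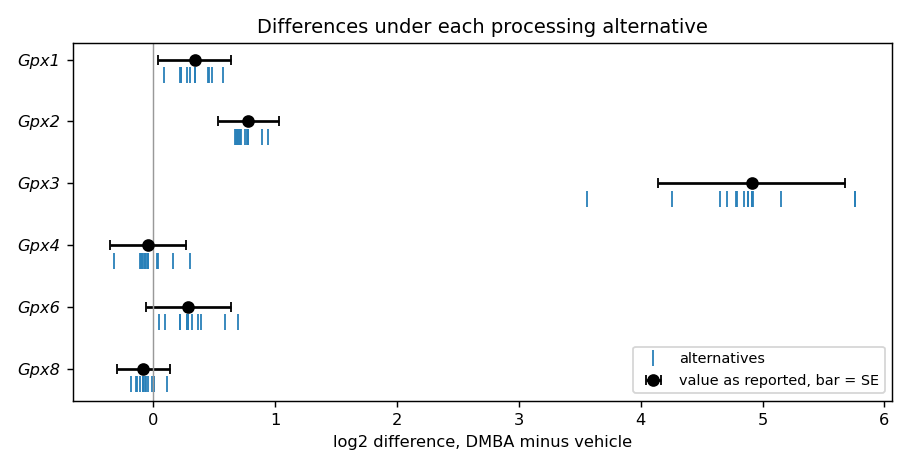
Log2 difference, DMBA minus vehicle, for the 6 tested members. Black points are the values as reported with their SE, and blue ticks are the values under each processing alternative in which the gene was present. Gpx3 ranges from 3.56 to 5.76 and Gpx2 from 0.67 to 0.94, while the ticks of Gpx4 and Gpx8 fall on both sides of 0.

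The members did not form a common pattern over the 6 arrays. Across the arrays Pearson's r was 0.80 between Gpx2 and Gpx3 and 0.76 between Gpx1 and Gpx4, but -0.17 between Gpx3 and Gpx4 and 0.31 between Gpx1 and Gpx3. These are descriptions over 6 arrays that share their scaling and the group difference. The 5 tested genes with the highest r to Gpx3 over the same 6 arrays were Ccng1, which encodes cyclin G1 (r = 0.986), Vipas39 of endosomal sorting (0.985), Mlip (0.984), Ddit4l, a regulator of mTOR signalling (0.984), and Thsd4, a matrix protein of the thrombospondin repeat class (0.983). Ddit4l read -0.16, 1.05 and 0.59 on DMBA arrays 1 to 3, against -1.95, -3.45 and -2.45 on vehicle arrays 1 to 3. Ccng1 read 0.37, 1.21 and 0.78 on the DMBA arrays, against -0.48, -1.32 and -1.23 on the vehicle arrays. Both resembled Gpx3 in having DMBA 2 as the highest array and vehicle 1 as the highest vehicle array. Picking genes by r over these same arrays favours such a likeness, so nothing is read from it. Their log2 differences were 3.11 (SE 0.49) and 1.79 (SE 0.35), against 4.91 for Gpx3, and those of the other 3 ranged from 0.28 to 1.56.

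**Figure D3:**
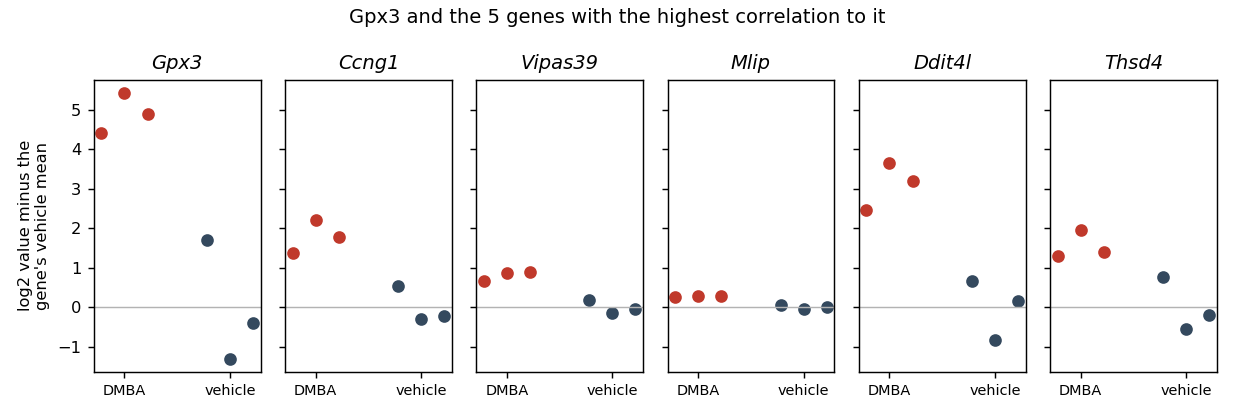
Log2 value of each array minus the gene's vehicle mean for Gpx3 and the 5 tested genes with the highest Pearson's r to it over the 6 arrays, with DMBA arrays (red) left of vehicle arrays (dark blue). All 6 genes have their DMBA arrays above their vehicle arrays, which picking genes by r to Gpx3 favours. The sizes differ, with Mlip at 0.28 and Gpx3 at 4.91.

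Markers of other cell types that a skin sort could hold were set beside Gpx3. In the list of fibroblast and dermal papilla markers, 8 of the 9 tested genes were higher after DMBA, with a median log2 difference of 0.49. The summed scaled intensity of the list was 9.65 to 17.2 on the DMBA arrays and 8.35 to 9.48 on the vehicle arrays. The nearest sums, 9.65 in DMBA and 9.48 in vehicle, lay close together. Crabp1, the brightest tested member, weighs most in that sum, and its groups overlapped. It read 3.26, 2.25 and 2.76 on the DMBA arrays, against 2.18, 2.38 and 2.25 on the vehicle arrays. Dcn, the proteoglycan decorin, read -0.35, -0.39 and -0.21 on DMBA arrays 1 to 3, against -1.64, -2.20 and -1.63 on vehicle arrays 1 to 3. Its log2 difference was 1.51 (SE 0.25; limma adjusted p = 0.445). The groups of Col1a1 did not overlap either, with a log2 difference of 1.29 (SE 0.57). The collagens of the list differed, with Col1a2 at 0.51 (SE 0.62) and Col3a1, the only lower marker, at -0.52 (SE 0.34). Of the other members of that list, Pdgfra and Sox2 were not well above background on any array, Fap was so on 1 vehicle array alone, and Lum on 1 array of each group. Ly6a encodes Sca1, the surface antigen used to exclude cells in the sort, and read 0.29, 0.27 and 0.13 on DMBA arrays, against -0.20, -1.67 and -1.78 on vehicle arrays (log2 difference 1.45, SE 0.45; limma adjusted p = 0.853). The list it belongs to, of Sca1, infundibulum and sebaceous markers, had 4 genes higher and 5 lower with a median of -0.27. The part of such cells in the Gpx3 difference was not tested.

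For the marker lists that follow the summed intensities overlapped between the groups. The range was 3.00 to 3.51 on DMBA arrays and 2.19 to 6.92 on vehicle arrays for the 9 tested adipocyte markers. It was 92.1 to 147 and 96.9 to 120 for the 12 tested leukocyte markers, and 9.20 to 12.2 and 9.92 to 14.5 for the 9 tested endothelial and muscle markers. Such sums follow the brightest probes and do not measure cell content. The leukocyte sum was mostly Itgam (mean 6.66 in DMBA, 6.59 in vehicle), while Ptprc stood at -1.60 and -1.51. The adipocyte sum was mostly Retn (0.42 and 0.49) and Pparg (0.08 and 0.16), while Adipoq stood at -3.02 and -3.27. Adipocytes are a known source of Gpx3. Of the adipocyte markers 3 were higher and 6 lower, with a median log2 difference of -0.02, and the marker of smallest p was Lpl at -0.93 (SE 0.69). Endothelial and muscle markers had 5 genes higher and 4 lower (median 0.02), with Pecam1 of smallest p at -0.51 (SE 0.34). Leukocyte markers had 3 higher and 9 lower (median -0.13), with H2-Aa of smallest p at -0.49 (SE 0.23). Sums of the 9 melanocyte markers were 4.15 to 6.78 on DMBA arrays and 2.97 to 4.48 on vehicle arrays. That list had 4 genes higher and 5 lower, with a median log2 difference of -0.05. Its genes at an unadjusted p under 0.05, Mlana and Tyrp1, stood at 2.72 (SE 0.95) and 3.35 (SE 1.32), and both overlapped between groups. Tyrp1 was well above background on 3 DMBA arrays and 1 vehicle array. It entered the tested set through its DMBA arrays, so the size of its difference is not a measured fold. Kit, named after its value was seen, stood at -1.24 (SE 0.73). The infundibulum and sebaceous list summed to 56.5 to 78.6 on DMBA arrays and 54.1 to 75.8 on vehicle arrays. The stem cell and hair germ list summed to 411 to 582 on DMBA arrays and 389 to 476 on vehicle arrays, with 5 genes higher and 10 lower (median -0.03), Lgr5 at -0.64 (SE 0.22) and Cd34 at -0.01 (SE 0.39).

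Genes related to these enzymes were then read from 6 lists of 100 genes, of which 94 were tested. By limma 0 of the 94 passed an adjusted p of 0.05, as did 0 of all genes (0% called; smallest adjusted p = 0.438). At an unadjusted p under 0.05, 1 of the 94 was higher and 3 were lower, a share of 4.26% beside 5.23% of all genes tested (2.73% higher and 2.49% lower), a share near the background. That split by direction rested on few genes: without vehicle 2 it was 3 higher and 0 lower, and with the mean over the probes of a gene 3 of 6 were higher. Their median log2 difference was -0.01, as was that of all genes, where 488 genes were higher and 445 lower at an unadjusted p under 0.05.

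Selenium reaches cells through selenoprotein P and is built into proteins by a dedicated set of factors, since the codon for selenocysteine otherwise ends translation. Of the 13 tested genes of this list, 6 were higher and 7 lower (median -0.20). Secisbp2l, a relative of the protein that binds the selenocysteine insertion element, read -3.77, -3.71 and -3.98 on DMBA arrays 1 to 3, against -3.05, -3.21 and -3.35 on vehicle arrays 1 to 3. All DMBA arrays lay below all vehicle arrays (log2 difference -0.62, SE 0.22; limma adjusted p = 0.896). Secisbp2 itself, the elongation factor Eefsec and the selenophosphate synthetase Sephs2, named by role after their values were seen, had values of 0.35 (SE 0.33), 0.02 (SE 0.32) and 0.24 (SE 0.29). Others of the list were lower, with Sepsecs at -0.80 (SE 0.50), the largest difference of the list, though its groups overlapped. Sephs1 stood at -0.35 (SE 0.23), Pstk at -0.20 (SE 0.29) and Lrp8 at -0.69 (SE 0.86). Lrp2 was well above background on 1 array of each group and was not tested.

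Among the 18 selenoproteins outside the family, 6 were higher and 12 lower, with a median of -0.08. Selenoi, which acts in the synthesis of phosphatidylethanolamine, read -0.75, -1.34 and -1.78 on DMBA arrays 1 to 3, against -0.34, -0.48 and -0.56 on vehicle arrays 1 to 3. Its groups did not overlap, and the log2 difference was -0.83 (SE 0.31; limma adjusted p = 0.938). The cytosolic thioredoxin reductase Txnrd1, named for its role after its value was seen, had a value of -0.57 (SE 0.34). No member of this list approached the 4.91 of Gpx3 in either direction. Only 1 of all genes tested had a higher log2 difference than Gpx3, whose 4.91 is not a measured fold. A list without such a value is therefore usual, and nothing is read from it.

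Glutathione, the reductant that all these peroxidases are named for, is made from cysteine and kept reduced with NADPH. Of 18 tested genes of its synthesis, recycling and NADPH supply, 5 were higher and 13 lower (median -0.13). Cbs, which channels homocysteine toward cysteine, read 0.97, 0.77 and 1.53 on DMBA arrays 1 to 3, against 1.91, 1.75 and 1.74 on vehicle arrays 1 to 3. The groups did not overlap (log2 difference -0.71, SE 0.27; limma adjusted p = 0.938). Named for their roles after their values were seen, the ligase subunits Gclc and Gclm had values of -0.42 (SE 0.28) and -0.18 (SE 0.24), and Gsr, which regenerates reduced glutathione, -0.15 (SE 0.23). The cystine transporter gene Slc7a11 and Ggt5 were not well above background on any array, and Nnt was not analysed here.

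Other enzymes that remove peroxides and superoxide split 11 higher to 7 lower over 18 tested genes (median 0.08). Sod3, the extracellular superoxide dismutase and like Gpx3 a secreted enzyme, read -2.40, -3.67 and -3.36 on DMBA arrays 1 to 3, against -4.70, -4.39 and -3.82 on vehicle arrays 1 to 3. Every DMBA array lay above every vehicle array, with a log2 difference of 1.16 (SE 0.42; limma adjusted p = 0.914). Srxn1 had the largest difference of the list, 1.49 (SE 0.67), but its groups overlapped. Catalase (Cat) and the peroxiredoxins Prdx1 and Prdx6, named by role after their values were seen, had values of 0.11 (SE 0.25), 0.02 (SE 0.22) and 0.51 (SE 0.28). Other kept probes of these genes gave 0.21 for Cat, -0.04 for Prdx1 and 0.39 to 1.04 for Prdx6.

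In the list of ferroptosis and lipid peroxide genes, where Gpx4 acts, 8 of 15 tested genes were higher and 7 lower (median 0.03), and 0 passed even an unadjusted p of 0.05. The smallest p was that of Acsl4, which loads membranes with polyunsaturated fatty acids, with a log2 difference of -0.42 (SE 0.45). These values use the brightest probe of each gene, and probes of a gene could differ. Aifm2 stood at 0.31 (SE 0.34) with its other kept probe at 1.32. Alox12b stood at 0.34 (SE 0.81) with its other kept probe at -0.36. Gch1, well above background on 1 array of each group, and Ptgs2, on 1 DMBA array, were not tested. The list of oxidative folding in the endoplasmic reticulum, where Gpx7 and Gpx8 act, had 8 of 12 genes higher (median 0.21), also with 0 at an unadjusted p under 0.05. Ero1a, the oxidase that generates hydrogen peroxide there, read 0.84, 1.17 and 1.70 on DMBA arrays 1 to 3, against 0.53, 0.74 and 0.64 on vehicle arrays 1 to 3. These groups did not overlap, and the log2 difference was 0.60 (SE 0.28; limma adjusted p = 0.968).

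**Figure D4:**
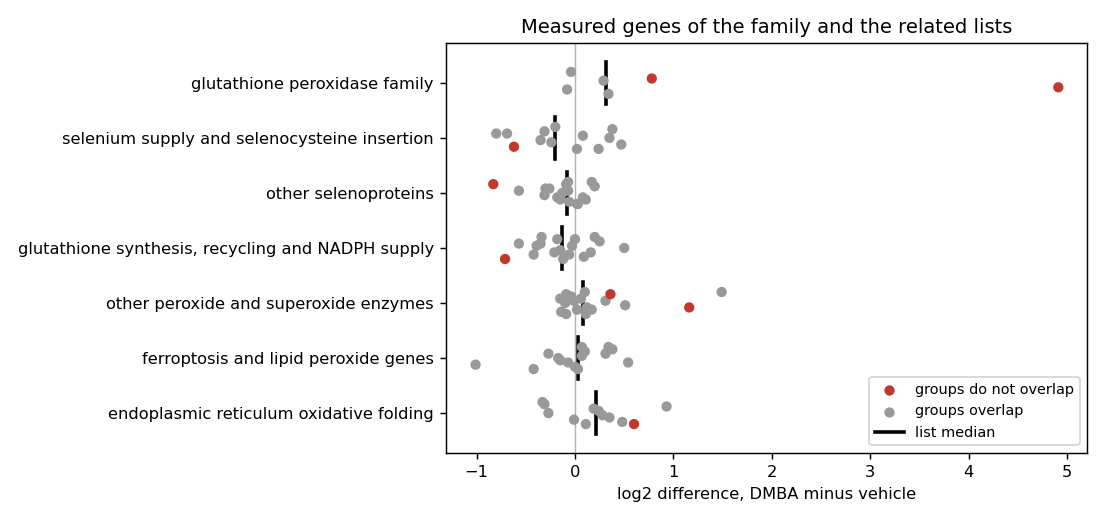
Log2 difference, DMBA minus vehicle, of each tested gene in the glutathione peroxidase family and in the 6 related lists. Red points are genes whose groups do not overlap, grey points genes whose groups overlap, and black lines list medians, which for the related lists lie between -0.20 and 0.21. Gpx3 at 4.91 is the point at the far right.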

How the data were processed

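RNA was measured on 1-colour arrays. Per the labels' protocols, sorted cells went straight into RLT buffer, and Cy3 was put into cDNA with Klenow enzyme. The scanner files hold spot intensity after background correction by Agilent Feature Extraction 10.7.1.1, per the file headers. The deposited matrix holds the same intensity divided by each array's 75th percentile (column medians 0.172, 0.159 and 0.16 for DMBA 1 to 3 and 0.162, 0.154 and 0.154 for vehicle 1 to 3) and was used for an alternative.

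Each processed intensity was divided by its array's 75th percentile over spots that are not controls and taken to log2. The 3671 control spots and all spots flagged as outliers were left out, and the remaining spots of a probe were averaged. This left 45 probe values missing. Probes were named through RefSeq accessions (28331 named, 27350 not; GRCm38.p6). The filter (3 or more arrays well above background) kept 44948 of 55681 probes. Each of 17844 genes was represented by its brightest such probe (4640 had several). DMBA was compared with vehicle by limma 3.58.1 (lmFit, eBayes, two-sided, no covariates) in R 4.3.3 with version 1.17.8 of its data.table package, with Benjamini-Hochberg adjustment over all genes, and tested on simulated data. SE values are limma's. The 3 arrays per group limit the precision.

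The members, lists and motifs were chosen with earlier results of these data known. Named were all members, the genes of each list at an unadjusted p under 0.05 (at most 4, otherwise the 1 of smallest p), sort and stem cell markers, and the 5 genes most correlated with Gpx3. Members not tested are given as levels. Same-numbered DMBA and vehicle arrays did not deviate together (r = 0.02, -0.02 and 0.06), so no pairing was used. The alternatives were other scalings and filters, the deposited matrix, slide, detection share or replicate number as covariates, no moderation, and leaving out each array.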

Additional observations from a re-analysis of the deposited data

How the results depend on the processing

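With each array left out in turn, the Gpx3 log2 difference ranged from 4.26 to 5.76, the number of tested members with groups that do not overlap from 2 to 4 (4 without DMBA 1, which added Gpx4 and Gpx8 as lower), the number of related genes at an unadjusted p under 0.05 from 1 to 5, and the number of genes passing the adjusted threshold from 0 to 1 (Apln, without vehicle 2, adjusted p = 0.0335). Groups overlap less readily once an array is left out, and the share over all genes was not computed for those settings. Nothing is therefore read from the member counts with an array left out. The related count was 4 over all arrays, 1 without DMBA 2 and 2 without DMBA 3, vehicle 1 or vehicle 3. Slide as a covariate, which equals leaving out vehicle 1, also gave 2. The Gpx3 difference was 3.56 with normexp, chosen after seeing the data and run on the median spot signal because the planned mean signal was not used here. The count of members fell to 1 (Gpx2) when probes had to be well above background on all 6 arrays, since Gpx3 was then not kept. Without the filter on dim probes, 1258 genes were higher at an unadjusted p under 0.05, against 488 with it. That number was 758 with the detection share as a covariate, which moved the median of all genes to 0.10. Without DMBA 1, 727 genes were lower, against 445. Gpx1, Gpx2, Gpx3 and Gpx6 kept their sign under every alternative that included them. Gpx4 turned under 4 and Gpx8 under 3 of 18. With the replicate block, the Gpx3 difference was 4.91, the related count 4 and the adjusted count 0, so it changed no call. Dim signal limits Gpx3 in vehicle, Gpx5, Gpx6 and Gpx7.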
